A study of Mus musculus with 24 samples.

Results

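Bone marrow-derived macrophages with Gch1 targeted for deletion were compared before and 2 h after LPS and interferon-γ were added. This comparison used the 6 arrays of 24 that the labels give as GCHfl/flTie2cre at these time points, 3 at each, from animals 1, 4 and 5, each of which was measured at both. Both groups came from Gch1fl/flTie2cre mice, adult females on a C57bl/6J background that carry a Gch1 allele flanked by loxP sites and a Cre recombinase driven by the Tie2 promoter. Tie2cre is active in endothelial cells and in cells derived from bone marrow such as macrophages, and cells of a culture that kept an intact allele cannot be told apart from the rest. The 0 h cells were harvested just before the stimulus, after serum starvation, and the 2 h cells had received LPS and interferon-γ together. The wild-type macrophages set beside them, also 3 arrays at each time point, came from littermates of the genotype GCHfl/fl without Cre, animals 2, 3 and 6. No group was held for 2 h without the stimulus, so the stimulus and further time in culture cannot be told apart. Each animal gave one culture per time point. The p-values measure the spread between cultures within a group, pooled over the 8 groups of the 24 arrays.

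Gch1 encodes GTP cyclohydrolase, the first enzyme of tetrahydrobiopterin (BH4) synthesis, and BH4 is the cofactor that inducible nitric oxide synthase needs to make nitric oxide. LPS is sensed by Toll-like receptor 4, which activates the NF-κB and MAP kinase pathways and the transcription of early cytokine genes. Interferon-γ signals through the JAK-STAT pathway, whose palindromic DNA element is called GAS, and the interferon regulatory factors made in turn bind the ISRE element. The first hours of the response hold immediate early genes, cytokines, and the feedback genes that later switch these pathways off.

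The stretches before the transcription start of 6 of the genes with the largest rises and of 2 of those with the largest falls show what could be read in the promoters of the genes described next. They are taken from RefSeq (GRCm38.p6), 250 bases up to the base before the first start in the table, written 5′ to 3′ along the gene. Capitals mark matches to motifs searched by letter: κB by its consensus, GAS as TTCNNNGAA, ISRE as GAAA, any 2 bases and GAAA again, and AP-1 as TGANTCA on both strands, the FoxO element TGTTTAC on both strands, and TATAAA on the gene's strand.
Cxcl9, chr5:92328080-92328329 (-): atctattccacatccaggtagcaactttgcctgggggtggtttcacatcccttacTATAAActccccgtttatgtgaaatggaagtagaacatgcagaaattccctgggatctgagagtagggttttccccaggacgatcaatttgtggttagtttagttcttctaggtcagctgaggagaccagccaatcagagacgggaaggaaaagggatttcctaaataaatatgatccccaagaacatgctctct
Serpina3f, chr12:104214294-104214543 (+): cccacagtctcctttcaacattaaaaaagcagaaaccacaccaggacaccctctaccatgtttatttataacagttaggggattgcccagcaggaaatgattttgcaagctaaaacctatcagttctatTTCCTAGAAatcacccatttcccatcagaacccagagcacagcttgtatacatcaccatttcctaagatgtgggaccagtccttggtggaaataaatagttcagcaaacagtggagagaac
Cish, chr9:107296409-107296658 (+): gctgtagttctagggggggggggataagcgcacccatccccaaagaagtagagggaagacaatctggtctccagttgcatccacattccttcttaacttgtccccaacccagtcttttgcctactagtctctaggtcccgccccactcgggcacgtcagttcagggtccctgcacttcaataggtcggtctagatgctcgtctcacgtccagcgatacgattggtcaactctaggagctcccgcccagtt
Ifnb1, chr4:88522795-88523044 (-): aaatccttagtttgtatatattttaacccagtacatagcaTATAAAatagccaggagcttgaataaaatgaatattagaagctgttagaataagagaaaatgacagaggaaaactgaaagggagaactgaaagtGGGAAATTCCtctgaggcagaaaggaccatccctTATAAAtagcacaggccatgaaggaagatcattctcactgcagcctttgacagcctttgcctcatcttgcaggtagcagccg
Il19, chr1:130940116-130940365 (-): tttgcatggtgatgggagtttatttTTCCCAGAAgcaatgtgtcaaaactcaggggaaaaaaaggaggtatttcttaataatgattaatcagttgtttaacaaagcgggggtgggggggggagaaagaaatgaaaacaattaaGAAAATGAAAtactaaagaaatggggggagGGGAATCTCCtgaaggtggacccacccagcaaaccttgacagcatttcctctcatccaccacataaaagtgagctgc
Il1a, chr2:129309973-129310222 (-): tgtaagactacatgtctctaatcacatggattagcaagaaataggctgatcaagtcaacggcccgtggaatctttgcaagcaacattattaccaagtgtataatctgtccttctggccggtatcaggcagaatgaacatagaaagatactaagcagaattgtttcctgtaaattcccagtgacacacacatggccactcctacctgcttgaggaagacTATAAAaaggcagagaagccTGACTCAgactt
Sesn1, chr10:41810324-41810573 (+): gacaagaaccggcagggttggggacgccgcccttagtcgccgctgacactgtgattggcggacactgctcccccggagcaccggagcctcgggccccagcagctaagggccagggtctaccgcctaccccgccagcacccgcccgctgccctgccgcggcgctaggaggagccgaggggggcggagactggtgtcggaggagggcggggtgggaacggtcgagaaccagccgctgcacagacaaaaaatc
Cd300lb, chr11:114934372-114934621 (-): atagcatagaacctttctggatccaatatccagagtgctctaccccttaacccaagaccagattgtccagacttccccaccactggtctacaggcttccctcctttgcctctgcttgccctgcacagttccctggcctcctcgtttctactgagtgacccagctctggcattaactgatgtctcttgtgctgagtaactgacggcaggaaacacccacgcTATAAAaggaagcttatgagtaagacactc
In these windows, Cxcl9 held a TATAAA match at 195 to 190 bases before the start and Serpina3f a GAS match at 121 to 113. Ifnb1 held a κB match at 116 to 107 bases and TATAAA matches at 210 to 205 and at 82 to 77. Il19 held a κB match at 77 to 68 bases, an ISRE match at 107 to 98 and a GAS match at 225 to 217. In Il1a the matches were AP-1 at 12 to 6 bases and TATAAA at 32 to 27, and in Cd300lb TATAAA at 30 to 25. None of these letters occurred in the windows of Cish and Sesn1, of which the Sesn1 window was 70.0% G and C. Such a match is a run of letters and not a measured binding site.

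A window was available by gene ID for 7299 of the 8875 tested genes, for 435 of those called higher at 2 h and for 788 of those called lower. A κB match stood in 12.2% of the windows of genes called higher and in 9.14% of those called lower, against 8.67% of all tested genes and 7.25% of all 32851 promoters of the table. ISRE stood in 6.90% of genes called higher and 1.52% of genes called lower, against 3.03% of tested genes and 2.98% of all promoters. AP-1 stood in 7.59% and 2.66%, against 4.34% and 6.75%, and GAS in 8.28% and 5.96%, against 5.97% and 7.02%. TATAAA stood in 9.43% of genes called higher and 2.54% of those called lower, against 4.22% and 7.59%. For the FoxO element the shares were 3.45% and 2.03%, against 2.10% and 3.17%. These shares are descriptions and were not tested.

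Values are log2 levels of Illumina MouseWG-6 probes after background correction and quantile normalization, and a change is the 2 h level minus the 0 h level, given with its standard error. A gene, shown by its brightest tested probe, is called higher or lower where limma's Benjamini-Hochberg adjusted p over all 16498 tested probes was under 0.05 and the fold over 1.5. Of 552 called genes with several tested probes, 282 had another probe that was not called the same way. In 42 of them another probe had the opposite sign. The 2 h arrays were dimmer than the 0 h arrays. Mean intensity was 1131, 1099 and 877 in animals 1, 4 and 5 at 0 h and 727, 825 and 593 at 2 h, and detected probes made up 30.4 to 32.6% of the array at 0 h and 27.6 to 28.7% at 2 h. Within a time point, the levels of animals 1 and 4 correlated at 0.9894 at 0 h and 0.9885 at 2 h, and those of animal 5 with either at 0.9516 to 0.9648. The 8 tested macrophage identity markers were detected on all 6 arrays, and their summed level was 130763 to 144659 at 0 h and 135183 to 139193 at 2 h. No marker of T, NK, B, mast or erythroid cells passed the detection filter, nor did Ly6g, Mpo, Elane and Prtn3 of the 8 neutrophil markers. The other 4 neutrophil markers summed to 1104 to 7349 at 0 h and 1489 to 10486 at 2 h, with 0 called. Of the other markers, Siglech, Dcn and Kdr were tested and 0 called. In bulk cultures, fewer cells of a type and less RNA per cell cannot be told apart.

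At 2 h, 560 of 8875 genes (6.31%) were called higher and 949 (10.7%) lower in Gch1fl/flTie2cre macrophages, together 17% of the genes. Over probes the shares were 6.75% higher and 9.68% lower, 16.4% together. The rises were fewer but larger: 85 genes rose and 34 fell by over 4-fold, 26 rose and 1 fell by over 8-fold, and 7 rose by over 16-fold. The median change was 1.13 among genes called higher and -0.99 among those called lower. The 3 arrays at 2 h lay wholly above the 3 at 0 h for 533 of the 560 genes, an ordering that 12.7% of all genes showed, and wholly below for 910 of the 949, against 23.5% of all genes. All 3 animals moved the same way in 557 and 941 genes. In animals 1, 4 and 5 taken alone, 1147, 988 and 1174 genes were over 1.5-fold higher and 1694, 1532 and 1695 over 1.5-fold lower. The median change over all genes was -0.10. It lay at -0.57 when each array was scaled to one median, where 246 genes were called higher and 2621 lower, so the balance of rises and falls depends on the scaling. Without animal 1, 277 genes were called higher and 452 lower, without animal 4, 309 and 481, and without animal 5, 433 and 717.

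**Figure D1:**
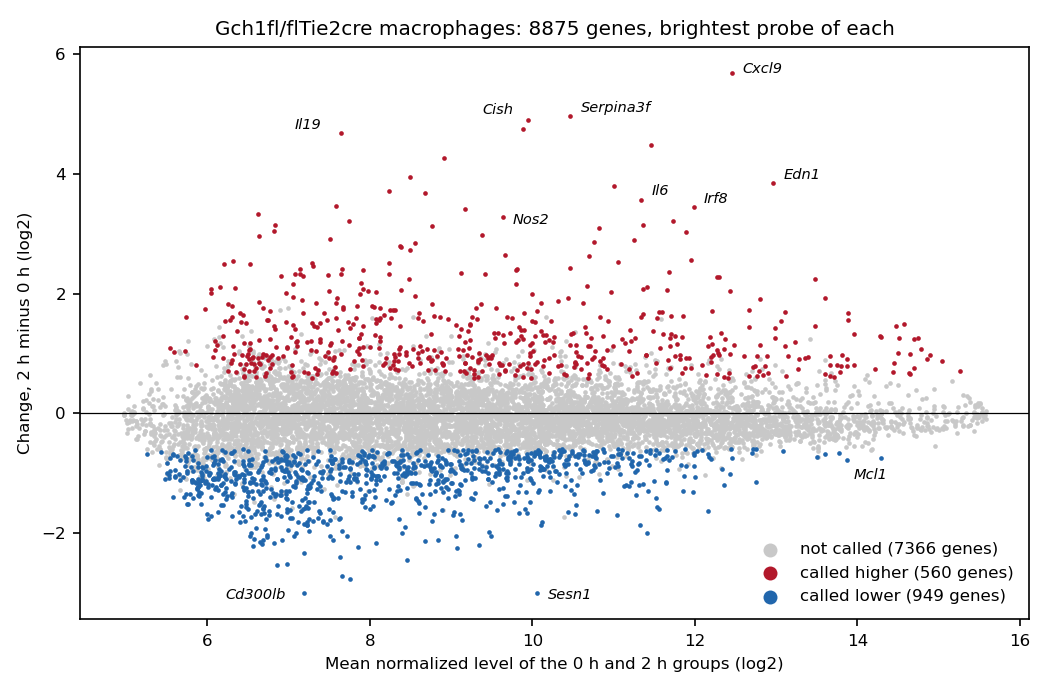
Change from 0 h to 2 h (log2, vertical axis) against the mean level of the 2 groups (log2, horizontal axis) for 8875 genes in Gch1fl/flTie2cre macrophages, each gene by its brightest probe. The 560 genes called higher reach a change of 5.69, while the 949 called lower extend to -3.001 and lie mostly at levels below 12.

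Calls were not spread evenly over levels. Of the 3033 genes with a mean level under 8, 6.33% were called higher and 12.6% lower, and of the 225 genes between 14 and 16, 8.89% were called higher and 0.889% lower. Among the 69 genes at 15 or more at 0 h, 0 were called, with 4 at an unadjusted p under 0.05. These genes lay close to the normalized maximum of 15.69 and moved by -0.54 to 0.31. Where a gene's brightest probe was at 14 or more at 0 h and either of its probes was called higher, the next probe changed more in 11 of 11 genes, with medians of 0.54 and 1.03 for the brightest and the next. Where the brightest probe was at 8 to 12, the next changed more in 114 of 175 genes, with medians of 0.85 and 1.00.

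The gene with the largest rise was Cxcl9, which encodes an interferon-γ-induced chemokine that attracts T cells. Its levels were 9.18, 10.81 and 8.85 before stimulation and 15.19, 15.10 and 15.62 at 2 h. The 2 h arrays stood close together near the top of the array's range, while animal 4 was the highest of the 3 before stimulation. The change was 5.69 ± 0.42 (adjusted p = 4.37e-08), in wild-type cells 6.36, and the level was still 15.36 at 8 h and 14.56 at 24 h. Serpina3f, a serine protease inhibitor gene, measured 7.48, 8.74 and 7.74 before stimulation and 12.49, 12.85 and 13.52 at 2 h, with no overlap between times. It changed by 4.96 ± 0.78 (adjusted p = 0.00016) and was back to 6.70 at 24 h.

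Cish, which encodes a STAT5-induced suppressor of cytokine signalling, measured 7.48, 7.67 and 7.35 before stimulation and 12.39, 12.05 and 12.77 at 2 h. All 3 animals started within a narrow range and rose together, by 4.91 ± 0.55 (adjusted p = 4.97e-06). Stat5a itself, a signal transducer of growth factor cytokines, measured 8.77, 8.75 and 8.29 before stimulation and 11.001, 11.03 and 11.04 at 2 h and rose by 2.42 ± 0.21 (adjusted p = 2.27e-07). Irf8, a transcription factor of the macrophage lineage that responds to interferon-γ, measured 10.49, 10.35 and 9.93 before stimulation and 13.49, 13.41 and 14.23 at 2 h. Its change of 3.46 ± 0.30 (adjusted p = 3.08e-07) was among the 20 largest, although the gene was well expressed before stimulation. Socs1, the feedback inhibitor of JAK kinases, rose by 2.98 ± 0.29, from 7.50, 8.32 and 7.84 at 0 h to 10.996, 11.06 and 10.54. The 2 h arrays of Socs1 all lay above those at 0 h.

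Of the 31 tested genes of the interferon receptor, JAK-STAT and IRF list, 13 (41.9%) were called higher, 0 lower and 18 not called. Among all genes 6.31% were called higher and 10.7% lower. The median change of the list was 0.47 against -0.10 for all genes. The members that kept their call without each animal in turn were Irf8, Cish, Socs1, Stat5a, Batf2 (2.57 ± 0.44) and Batf3 (undetected at 0 h, at least 1.73-fold higher), which encode partners of the AP-1 and IRF factors, Ptpn2 (1.58 ± 0.32), a phosphatase of JAK and STAT proteins, Jak2 (1.34 ± 0.26), Socs3 (1.25 ± 0.15) and Stat3 (0.96 ± 0.20). Batf, Pim1 and Stat4 lost it in at least one such set, with adjusted p of 0.0565 to 0.232 and changes of 0.78 to 1.33. Irf1, the first IRF made after interferon-γ, measured 14.98, 15.32 and 15.14 before stimulation and 15.46, 15.52 and 15.40 at 2 h on its brightest probe and was not called on it (0.31 ± 0.24, adjusted p = 0.407). Its 4 other probes changed by 1.13 to 1.53.

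Several cytokine genes stood among the largest rises. Ifnb1, which encodes interferon-β, measured 7.25, 8.44 and 6.83 before stimulation and 12.15, 12.80 and 11.83 at 2 h. Each animal rose by over 4 log2 units, and the change was 4.75 ± 0.85 (adjusted p = 0.000549). The mean had fallen again to 8.06 at 8 h and 7.09 at 24 h, but the animals differed. Animals 1, 4 and 5 stood at 6.844, 7.555 and 9.785 at 8 h and at 5.812, 6.411 and 9.039 at 24 h, so animal 5 stayed above its 0 h level. Il19, a cytokine gene of the IL-10 family, was not detected on any array at 0 h and was detected on all 3 at 2 h, at 10.52, 10.59 and 8.84. Set against the lowest detected level, it was at least 11.5-fold higher (adjusted p = 4.82e-06), and animal 5 was the lowest of the 3. Its highest mean came later, at 12.11 at 8 h.

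Il1a, the gene of interleukin-1α, measured 9.72, 9.46 and 8.48 before stimulation and 13.997, 13.60 and 13.50 at 2 h and rose by 4.48 ± 0.45 (adjusted p = 1.56e-06). Its other probe changed by 4.45. Il1b measured 14.32, 14.10 and 13.06 before stimulation and 15.46, 15.35 and 15.14 at 2 h, near the top of the range at 2 h, and changed by 1.49 ± 0.46 (adjusted p = 0.0299). That call was lost without any single animal, at an adjusted p of 0.127 without animal 1, 0.139 without animal 4 and 0.194 without animal 5, where the changes were 1.665, 1.608 and 1.196. Tnf measured 14.23, 14.31 and 14.17 before stimulation and 15.26, 15.32 and 15.38 at 2 h, 3 tight arrays at each time, and rose by 1.08 ± 0.22 (adjusted p = 0.002), with 1.17 on its other probe. Il6, whose product drives the acute phase response, measured 9.11, 9.50 and 10.04 before stimulation and 12.81, 13.23 and 13.33 at 2 h.

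Genes of the interleukin-12 family were measured by 3 members. Il12a, the p35 subunit, was undetected at 0 h and stood at 8.13, 8.36 and 8.73 at 2 h, at least 3.86-fold higher (adjusted p = 0.000322). Il23a, the p19 subunit of interleukin-23, measured 5.73, 6.68 and 6.93 before stimulation and 9.19, 9.13 and 8.28 at 2 h and rose by 2.42 ± 0.30 (adjusted p = 1.43e-05), from 2 of 3 arrays detected at 0 h. Il27, the p28 subunit of interleukin-27, measured 8.65, 9.76 and 8.90 before stimulation and 12.65, 13.01 and 13.07 at 2 h and rose by 3.80 ± 0.65 (adjusted p = 0.000368). In all 3 genes the arrays of the time points did not overlap.

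Among ligands of other families, Tnfsf15, a TNF superfamily ligand also known as TL1A, measured 5.97, 7.20 and 7.15 before stimulation and 10.62, 11.12 and 11.40 at 2 h and rose by 4.27 ± 0.34 (adjusted p = 1.24e-07). It was detected on 2 of the 3 arrays at 0 h. Edn1, the gene of the vasoconstrictor peptide endothelin-1, measured 10.88, 11.96 and 10.27 before stimulation and 14.98, 14.90 and 14.78 at 2 h. The 3 arrays at 2 h stood closer together than those at 0 h, and the change was 3.85 ± 0.59 (adjusted p = 0.000131). It stood at 12.78 at 8 h and 8.31 at 24 h, below each of its 0 h arrays at the later time. Inhba, the activin A subunit, was undetected at 0 h and at least 7.24-fold higher at 2 h, at 9.35, 8.97 and 9.62 (adjusted p = 9.52e-07). One growth factor gene moved the other way: Vegfa, the main angiogenic factor, measured 10.59, 10.51 and 10.01 before stimulation and 8.83, 9.27 and 8.16 at 2 h and fell by 1.61 ± 0.34 (adjusted p = 0.00216).

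Of the 29 tested cytokine and growth factor genes, 18 (62.1%) were called higher, 1 (3.45%) lower and 10 not called, against 6.31% and 10.7% of all genes. Their median change was 1.31, the highest of the 22 lists. Of the 18, 14 kept the call without each animal in turn. Those not yet given were Il10 (2.87 ± 0.45), the anti-inflammatory cytokine gene, Tnfsf9 (2.63 ± 0.55), a costimulatory ligand of the TNF superfamily, Hbegf, a growth factor of the EGF family that was undetected at 0 h (at least 2.1-fold higher), and Il1rn (1.67 ± 0.25), which encodes the interleukin-1 receptor antagonist. Osm, Csf1 and Csf2, beside Il1b, lost it, with changes of 0.70 to 1.67 over the 4 genes where the call was lost.

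**Figure D2:**
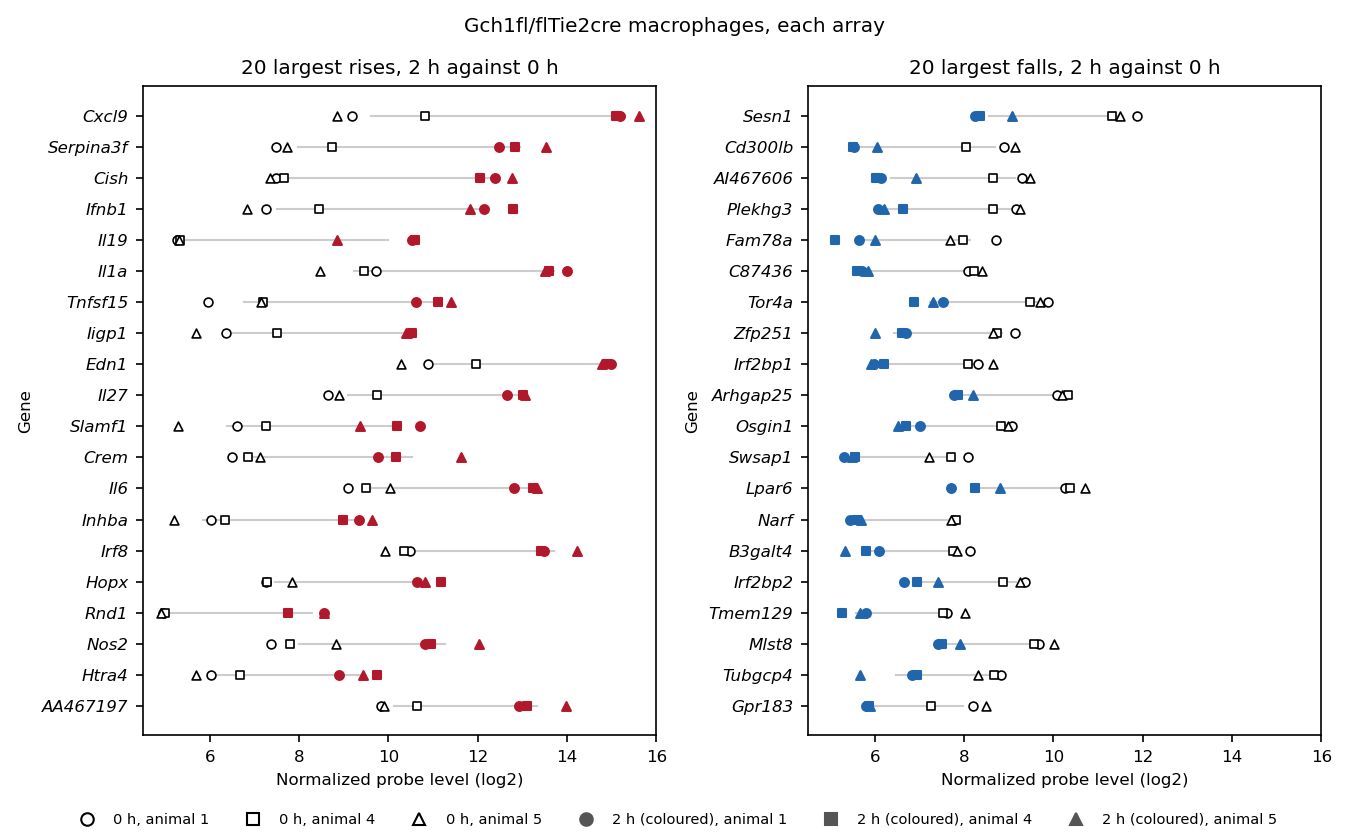
Normalized level (log2, horizontal axis) of the 20 genes with the largest rises (left) and the 20 with the largest falls (right) in Gch1fl/flTie2cre macrophages, with open symbols for 0 h, coloured symbols for 2 h, one symbol shape per animal and a grey line joining the group means. By the rule of choice, the 3 arrays at 2 h lie beyond the 3 at 0 h in every gene; the Cxcl9 arrays at 2 h lie between 15.10 and 15.62, and the falls start below 12.

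Most chemokine calls did not hold with 2 of the 3 animals. Of 19 tested, 9 (47.4%) were called higher, 0 lower and 10 not called (median 0.71), against 6.31% and 10.7% of all genes. Without animals 1, 4 and 5 in turn, however, 1, 5 and 5 were called higher. Cxcl9 alone kept its call in each such set, and where the call of one of the other 8 was lost, its change was still 0.40 to 2.58, at an adjusted p of 0.0553 to 0.406. For Ccl8, a change of 2.65 became 2.58 without animal 1 and 2.31 without animal 5. Ccl2, a monocyte chemoattractant gene, measured 10.06, 10.75 and 12.58 before stimulation and 12.89, 13.07 and 14.27 at 2 h. Animal 5 was the highest at both times, and the call (2.28 ± 0.56, adjusted p = 0.00683) was lost without animal 1 (2.01, adjusted p = 0.0994) and without animal 4 (2.26, adjusted p = 0.0773). Cxcl10 measured 14.27, 15.37 and 15.09 before stimulation and 15.61, 15.62 and 15.62 at 2 h, at the top of the range after 2 h, and changed by 0.71 ± 0.23 on this probe and by 1.43 on its other probe. Ccl3 measured 15.64, 15.65 and 15.38 before stimulation and 15.56, 15.61 and 15.65 at 2 h with a change of 0.05 ± 0.30 on a probe already at the top at 0 h. Cxcl5 is not analysed here.

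NF-κB feedback genes changed by smaller amounts. Of 26 tested subunits and feedback genes, 13 (50%) were called higher, 1 (3.85%) lower and 12 not called, against 6.31% and 10.7% of all genes. Their median was 0.62. Rel, the subunit c-Rel, measured 9.04, 8.92 and 8.18 before stimulation and 10.82, 11.07 and 10.72 at 2 h and rose by 2.16 ± 0.33 (adjusted p = 0.000134). Tnfaip3, the ubiquitin-editing enzyme A20 that ends NF-κB signalling, measured 12.19, 12.40 and 12.19 before stimulation and 14.10, 14.12 and 13.64 at 2 h and rose by 1.70 ± 0.19 (adjusted p = 5.37e-06). Nfkbia, the inhibitor IκBα, measured 13.70, 13.62 and 13.33 before stimulation and 14.48, 14.43 and 14.17 at 2 h and rose by 0.81 ± 0.15 (adjusted p = 0.000642). None of these genes had overlapping arrays, although each was already expressed before stimulation.

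Bcl3 (1.76 ± 0.23) and Nfkbiz (1.33 ± 0.19), nuclear members of the IκB family, Peli1 (1.71 ± 0.23), a ubiquitin ligase, Nfkbib (1.45 ± 0.20), Zc3h12a (1.34 ± 0.20), a nuclease that degrades cytokine transcripts, and Nfkb2 (1.12 ± 0.25) also rose and kept their call without each animal. Nfkbie, Zc3h12c, Tank and Zfp36, and the falling Ikbkg, did not keep it. Their changes where the call was lost were 0.45 to 1.02 for the first 4 genes, at an adjusted p of 0.101 to 0.324, and -0.70 to -0.54 for Ikbkg, at 0.0632 to 0.174. Nfkb1 is not analysed here.

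The MAP kinase phosphatases and stress regulators split. Of 14 tested, 6 (42.9%) were called higher and 3 (21.4%) lower, against 6.31% and 10.7% of all genes (median 0.73). Dusp2, a nuclear phosphatase of ERK and p38, measured 10.70, 11.38 and 9.05 before stimulation and 13.84, 13.89 and 12.48 at 2 h. It rose by 3.02 ± 0.47 (adjusted p = 0.000141), with animal 5 lowest at both times. Dusp16 (2.11 ± 0.35), a phosphatase of JNK and p38, and Spred2 (1.84 ± 0.26, detected on 2 of 3 arrays at 0 h), an inhibitor of the Ras pathway, rose as well. So did Map3k8 (1.64 ± 0.24, and 0.65 on its other probe), the kinase that feeds ERK in LPS signalling. Dusp6, the cytoplasmic ERK phosphatase, measured 11.12, 10.99 and 10.97 before stimulation and 8.95, 8.98 and 9.73 at 2 h, lower on every array at 2 h, and its change was -1.81 ± 0.47 (adjusted p = 0.0108). Its call was lost without animal 1 (-1.63, adjusted p = 0.125) and animal 4 (-1.71, adjusted p = 0.121), and those of Dusp4, Dusp7, Dusp1 and Spred1 were also lost without an animal, at changes of -1.14 to 0.90.

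Of 25 tested immediate early transcription factors, 7 (28%) were called higher, against 6.31% of all genes, and 2 (8%) lower, against 10.7%. The other 16 were not called, and the median of the list was 0.33. Csrnp1, an immediate early factor, measured 11.08, 11.65 and 10.74 before stimulation and 13.37, 13.49 and 13.48 at 2 h and rose by 2.29 ± 0.41 (adjusted p = 0.000506). Maff, a small MAF factor, measured 7.59, 7.10 and 5.91 before stimulation and 9.09, 8.82 and 8.95 at 2 h and rose by 2.09 ± 0.35 (adjusted p = 0.000358), against 1.11 in wild-type cells, and was detected on 2 of 3 arrays at 0 h. Fos, a subunit of AP-1, measured 12.44, 11.62 and 12.14 before stimulation and 10.69, 10.95 and 10.69 at 2 h and was called lower, with a change of -1.29 ± 0.30 (adjusted p = 0.00487) that lost its call without animal 1 (-1.06, adjusted p = 0.1). Mafg, another small MAF, measured 11.89, 11.54 and 11.92 before stimulation and 10.70, 10.60 and 10.61 at 2 h and fell by 1.15 ± 0.20 (adjusted p = 0.000437).

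Mafk (1.58 ± 0.25) and Junb (1.24 ± 0.21) rose and kept their call, and Klf4, Fosl2 and Nr4a2 lost theirs without an animal, with changes of 0.63 to 2.23 there. Jun measured 8.75, 8.81 and 8.99 before stimulation and 8.50, 8.85 and 8.55 at 2 h. Egr1 measured 11.14, 11.34 and 10.38 before stimulation and 11.84, 11.86 and 12.17 at 2 h. Neither was called, although the 3 Egr1 arrays at 2 h lay above those at 0 h.

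Interferon-inducible GTPases, some of which attack the vacuoles of intracellular pathogens, were called higher in 10 of 15 tested genes (66.7%, all genes 6.31%). They were called lower in 0 (all genes 10.7%), with a median of 1.12 (wild-type 14 of 15 higher, median 1.41). Iigp1 measured 6.35, 7.51 and 5.70 before stimulation and 10.48, 10.53 and 10.39 at 2 h, with animal 4 the highest at 0 h and the 3 animals close together at 2 h. Its change was 3.95 ± 0.78 (adjusted p = 0.00141), and its other probes changed by 2.12 and 2.68. At 0 h Iigp1 and Gbp10 were detected on 2 of 3 arrays. Iigp1, Gbp10 (1.93 ± 0.22) and Tgtp1 (2.138 ± 0.42) kept the call without each animal, and the other 7 did not, with changes of 0.63 to 1.19 and an adjusted p of 0.0559 to 0.364 where it was lost. Without animals 1, 4 and 5 in turn, 3, 8 and 8 of these genes were called higher.

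Antiviral interferon-stimulated genes were called higher in 7 of 33 (21.2%, all genes 6.31%) and lower in 0 (all genes 10.7%), with a median of 0.37. In wild-type cells 11 of 33 were called higher (median 0.60). Oasl1, which encodes a relative of the oligoadenylate synthetases, measured 11.62, 12.73 and 11.07 before stimulation and 13.63, 13.78 and 13.20 at 2 h and rose by 1.72 ± 0.34 (adjusted p = 0.00131). Ifi205, a gene of the p200 family of DNA-sensing proteins, measured 13.44, 13.80 and 12.08 before stimulation and 14.76, 14.80 and 14.43 at 2 h and rose by 1.56 ± 0.32 (adjusted p = 0.00189). These were the members that kept their call without each animal. No member of either interferon list was called in the difference between the genotypes' responses, so the unequal counts are not shown to differ.

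Nos2, the gene of inducible nitric oxide synthase, measured 7.38, 7.79 and 8.82 before stimulation and 10.83, 10.96 and 12.03 at 2 h. Animal 5 was the highest at both times. The change was 3.28 ± 0.45 on this probe (adjusted p = 4.67e-05) and 1.49 on the other, and the level went on to 12.83 at 8 h and 11.62 at 24 h. The arginine transporter gene Slc7a2 measured 6.86, 6.35 and 5.78 before stimulation and 9.12, 8.88 and 7.93 at 2 h and rose by 2.31 ± 0.36 (adjusted p = 0.000157), from 1 of 3 arrays detected at 0 h. Its other probes changed by 2.52, 0.80 and 0.26. Arg2, the mitochondrial arginase, measured 7.71, 8.14 and 7.53 before stimulation and 9.46, 9.47 and 9.24 at 2 h and rose by 1.60 ± 0.20 (adjusted p = 1.88e-05). These 3 (25%, all genes 6.31%) were the members of the BH4, nitric oxide and arginine list called higher, of 12 tested. In this list 0 were called lower (all genes 10.7%), and the median was 0.04.

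The targeted gene was still read by its probes. By other measures, the authors reported Gch1 RNA as undetectable by RT-PCR in such macrophages, with or without stimulation. They also found no GTP cyclohydrolase protein by Western blot. Gch1, on chromosome 14, measured 11.24, 11.43 and 11.27 before stimulation and 12.11, 12.27 and 11.78 at 2 h, and its change of 0.74 ± 0.30 (adjusted p = 0.0923) was not called. Its other probe changed by 0.45. Relative to wild-type cells Gch1 stood, on its brightest probe, at -2.55 log2 units at 0 h (adjusted p = 0.000606) and at -2.23 at 2 h (adjusted p = 0.00311). The call at 2 h was lost without animal 4 (-2.34, adjusted p = 0.0711) and without wild-type animal 3 (-2.26, adjusted p = 0.0899). The other enzymes of the pathway moved less: Pts, the second enzyme of BH4 synthesis, changed by 0.01 ± 0.15, Spr, the last, by -0.01 ± 0.29 and Qdpr, which recycles BH4, by 0.03 ± 0.31.

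Ptgs2, the inducible cyclooxygenase, was the 1 gene called of 11 prostaglandin, leukotriene and itaconate enzymes (9.09% higher, against 6.31% of all genes). It measured 10.41, 10.37 and 10.71 before stimulation and 12.85, 12.66 and 13.10 at 2 h and changed by 2.37 ± 0.59 (adjusted p = 0.00808). The call was lost without animal 1 (2.34, adjusted p = 0.0644) and animal 4 (2.42, adjusted p = 0.0774), with nearly the same change. Acod1, which makes itaconate, measured 15.50, 15.39 and 15.24 before stimulation and 15.56, 15.54 and 15.46 at 2 h, at the top of the range at both times, and changed by 0.14 ± 0.12, with 0.36 on its other probe.

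Costimulatory and adhesion genes were called higher in 8 of 26 (30.8%, all genes 6.31%) and lower in 0 (all genes 10.7%), with a median of 0.63. Slamf1, a receptor of the SLAM family, measured 6.61, 7.25 and 5.28 before stimulation and 10.72, 10.20 and 9.37 at 2 h and rose by 3.71 ± 0.55 (adjusted p = 9e-05), with 3.09 and 0.39 on its other probes, and was detected on 2 of 3 arrays at 0 h. Cd80, a ligand of CD28, measured 7.76, 7.78 and 8.09 before stimulation and 9.39, 9.49 and 9.40 at 2 h, 3 nearly equal arrays at 2 h, and rose by 1.55 ± 0.25 (adjusted p = 0.000216). Cd40, the receptor for the T cell CD40 ligand, rose by 1.27 ± 0.20 and Cd274, the inhibitory ligand PD-L1, by 0.99 ± 0.16. Cd69, Icam1, Slamf7 and Itgav lost their call without an animal, with changes of 0.51 to 1.27 there.

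Among genes of shape, adhesion to matrix and clotting, 9 of 30 (30%) were called higher and 0 lower, against 6.31% and 10.7% of all genes (median 0.54). Rnd1, a small GTPase gene whose product loosens the actin cytoskeleton, was undetected at 0 h and stood at 8.55, 7.76 and 8.57 at 2 h, at least 3.56-fold higher (adjusted p = 6.98e-10). Sphk1, which makes sphingosine 1-phosphate, measured 7.15, 7.50 and 6.93 before stimulation and 10.44, 10.24 and 10.32 at 2 h and rose by 3.14 ± 0.48 (adjusted p = 0.00012). Rhob, an early-response small GTPase gene, measured 10.27, 9.63 and 9.46 before stimulation and 12.31, 11.98 and 12.67 at 2 h and rose by 2.54 ± 0.29 (adjusted p = 7.64e-06). In each the time points were wholly apart.

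Plaur, the urokinase receptor gene, rose by 1.84 ± 0.22 (adjusted p = 9.26e-06). Serpinb2, an inhibitor of urokinase, measured 9.80, 9.80 and 9.82 before stimulation and 12.40, 12.64 and 13.08 at 2 h with hardly any spread at 0 h, and changed by 2.90 ± 0.66 (adjusted p = 0.00424), a call lost without animal 4 (2.93, adjusted p = 0.0586). Rnd3, Timp1, Mmp13 and Plek also lost theirs without an animal, with changes of 0.55 to 1.98 there.

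Of 20 tested Toll-like receptors, related sensors and adaptors, 1 (5%) was called higher and 1 (5%) lower. Among all genes the shares were 6.31% and 10.7%. Tlr4 measured 10.16, 10.57 and 10.66 before stimulation and 9.97, 10.08 and 10.21 at 2 h and changed by -0.38 ± 0.25 (adjusted p = 0.332), and its arrays overlapped. The gene called higher was Nod1, a sensor of bacterial peptidoglycan. It measured 10.71, 11.61 and 10.81 before stimulation and 12.32, 12.55 and 12.23 at 2 h and rose by 1.32 ± 0.20 (adjusted p = 0.000149). Tlr13, a sensor of bacterial ribosomal RNA, was called lower, from 12.72, 12.57 and 12.63 at 0 h to 11.44, 11.71 and 10.81 (-1.32 ± 0.33, adjusted p = 0.00758), a call lost without animal 1 (-1.34, adjusted p = 0.0617).

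Of 24 G protein-coupled receptors 3 (12.5%) were called higher, against 6.31% of all genes, and 3 (12.5%) lower, near the 10.7% of all genes. The median was 0.24, and -0.18 with each array scaled to one median. S1pr2, a receptor of sphingosine 1-phosphate that inhibits migration, measured 13.02, 13.15 and 12.76 before stimulation and 11.34, 11.25 and 11.43 at 2 h and fell by 1.64 ± 0.19 (adjusted p = 5.51e-06). Lpar6, a receptor of lysophosphatidic acid, measured 10.26, 10.37 and 10.70 before stimulation and 7.70, 8.23 and 8.80 at 2 h, and its change of -2.20 ± 0.47 (adjusted p = 0.00247) lost its call without animal 1 (-2.01, adjusted p = 0.0512). Gpr183, the oxysterol receptor EBI2, stood at 8.19, 7.25 and 8.49 at 0 h and was undetected at 2 h, at least 2.09-fold lower (adjusted p = 0.00343), a call also lost without animal 1 (-1.99, adjusted p = 0.0594). Gpr132 (1.51 ± 0.26, detected on 2 of 3 arrays at 0 h) and Ccrl2 (1.46 ± 0.23), a chemerin-binding receptor gene, rose, and Hcar2, a receptor of ketone bodies and niacin, lost its call without any single animal, at 1.04 to 1.28.

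On brightest probes the largest fall was that of Sesn1, a p53- and FoxO-responsive gene whose product restrains mTORC1 when amino acids are scarce. It measured 11.88, 11.31 and 11.49 before stimulation and 8.25, 8.35 and 9.08 at 2 h. All 3 arrays at 2 h lay over 2 log2 units below the lowest at 0 h. The change was -3.001 ± 0.347 (adjusted p = 7.25e-06), with -2.90 and -2.46 on its other probes and -3.35 in wild-type cells, and the level was 6.75 at 8 h and 9.86 at 24 h. Mlst8, a subunit of the mTOR complexes, measured 9.67, 9.56 and 10.002 before stimulation and 7.42, 7.51 and 7.89 at 2 h and fell by 2.138 ± 0.23 (adjusted p = 4.09e-06), with -2.21 and -1.89 on its other probes.

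The FoxO, glucocorticoid and starvation-linked list moved in both directions, 3 of 20 (15%) higher and 6 (30%) lower, against 6.31% and 10.7% of all genes. Its median was 0.15, and -0.21 with each array scaled to one median. Irs2, an insulin receptor substrate gene, measured 6.74, 7.11 and 6.54 before stimulation and 8.64, 8.59 and 9.72 at 2 h and rose by 2.19 ± 0.32 (adjusted p = 8.21e-05), from 2 of 3 arrays detected at 0 h. Ccng2, an atypical cyclin gene, measured 10.60, 10.88 and 10.66 before stimulation and 12.41, 12.59 and 12.23 at 2 h and rose by 1.69 ± 0.32 (adjusted p = 0.000816). Of the 6 lower, Sesn1 alone kept its call without each animal. Txnip, the inhibitor of thioredoxin, measured 13.32, 13.31 and 13.35 before stimulation and 12.19, 11.76 and 12.59 at 2 h and changed by -1.15 ± 0.26 (adjusted p = 0.00431), which lost the call without animal 1 (-1.15, adjusted p = 0.0591) and animal 4 (-0.95, adjusted p = 0.0929). Tsc22d3, Sesn2, Ccng1 and Foxo3 lost theirs at changes of -1.196 to -0.648, as did Cdkn1b, the cell cycle inhibitor p27, called higher with all animals, at 1.01 and 1.10.

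Cd300lb, an activating receptor gene of myeloid cells, stood at 8.89, 8.05 and 9.13 at 0 h and was undetected on all 3 arrays at 2 h, at least 3.43-fold lower (adjusted p = 1.36e-05). Arhgap25, a Rac-inactivating GTPase regulator of phagocytes, measured 10.08, 10.32 and 10.18 before stimulation and 7.77, 7.86 and 8.19 at 2 h, tight groups with a gap between them, and fell by 2.25 ± 0.19 (adjusted p = 2.21e-07). Tor4a, a torsin family ATPase gene, measured 9.87, 9.48 and 9.69 before stimulation and 7.53, 6.88 and 7.29 at 2 h and fell by 2.44 ± 0.19 (adjusted p = 1.17e-07). Osgin1, an oxidative stress-induced growth inhibitor gene among the NRF2 targets, measured 9.07, 8.83 and 8.99 before stimulation and 7.01, 6.70 and 6.51 at 2 h and fell by 2.23 ± 0.21 (adjusted p = 7.04e-07). Osgin1 was detected on 1 of the 3 arrays at 2 h, so the size of its fall rests partly on values below detection. Of 22 tested NRF2 targets, 1 (4.55%) was called higher and 1 (4.55%) lower, with a median of -0.22. Among all genes the shares were 6.31% and 10.7%. The other NRF2 target called was Slc7a11, the cystine transporter, which was higher by 0.95 ± 0.32 (adjusted p = 0.0454). Its call was lost without animal 1 (0.78, adjusted p = 0.315) and animal 4 (0.83, adjusted p = 0.251).

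Irf2bp1 and Irf2bp2, which encode co-repressors of the IRF2-binding family, were both among the 20 largest falls. Irf2bp2 measured 9.36, 8.87 and 9.24 before stimulation and 6.64, 6.94 and 7.42 at 2 h and fell by 2.16 ± 0.22 (adjusted p = 2.03e-06), with -1.22 on its other probe, and was detected on 2 of 3 arrays at 2 h. Irf2bp1 stood at 8.32, 8.10 and 8.64 and was undetected at 2 h, at least 2.71-fold lower (adjusted p = 4.81e-07). AI467606, a gene without an assigned role here, and Plekhg3, a guanine nucleotide exchange factor gene, were also detected on all 3 arrays at 0 h and on none at 2 h, at least 4.67-fold and 4.3-fold lower.

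Of 9 circadian clock genes, 0 were called higher and 3 (33.3%) lower, against 6.31% and 10.7% of all genes (median -0.72). Where no replicate block was fitted 1 was lower, and with each array scaled to one median 6. Per1, a core clock repressor that responds to glucocorticoids, stood at 7.48, 7.31 and 7.89 at 0 h and was undetected at 2 h, at least 1.57-fold lower (adjusted p = 0.000558). Dbp and Ciart, outputs of the clock, changed by -1.04 ± 0.32 and -0.94 ± 0.32, and their calls were lost without an animal, at an adjusted p of 0.0816 to 0.339 and changes of -1.17 to -0.71.

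Of 25 glycolysis and hypoxia response genes, 0 were called higher and 4 (16%) lower, against 10.7% of all genes (median -0.39). With no replicate block 2 were lower, with each array scaled to one median 10, and without animals 1, 4 and 5 in turn 1, 1 and 5. Pfkfb4, which sets the flux into glycolysis, measured 11.33, 11.28 and 11.19 before stimulation and 9.35, 9.26 and 10.26 at 2 h and fell by 1.64 ± 0.25 (adjusted p = 0.000149). Egln3, an oxygen-sensing prolyl hydroxylase gene, measured 11.17, 10.84 and 11.13 before stimulation and 8.83, 8.83 and 9.88 at 2 h, with animal 5 the highest at 2 h, and changed by -1.87 ± 0.48 (adjusted p = 0.00931), a call lost without animal 1 (-1.63, adjusted p = 0.141) and animal 4 (-1.80, adjusted p = 0.103). Egln1 and Pdk1 lost theirs without an animal, at changes of -1.14 to -0.82. Hk2 is not analysed here.

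Of 22 survival genes 5 (22.7%) were called higher and 3 (13.6%) lower, against 6.31% and 10.7% of all genes. Where no replicate block was fitted 1 was lower. The median was 0.32, and -0.14 with each array scaled to one median. Bcl2l11, the pro-apoptotic BIM, measured 10.77, 10.90 and 9.92 before stimulation and 12.08, 12.22 and 12.13 at 2 h and rose by 1.62 ± 0.24 (adjusted p = 8.5e-05). Mcl1, an anti-apoptotic gene with a short-lived transcript, measured 14.46, 14.10 and 14.22 before stimulation and 13.54, 13.51 and 13.39 at 2 h and fell by 0.78 ± 0.15 (adjusted p = 0.001). Bcl2a1c, of the anti-apoptotic A1 genes, rose by 1.07 ± 0.18, and near-identical copies of this gene may share its probe. The remaining calls, of Nlrp3, Bcl2a1b, Birc3, Pmaip1 and Bid, were lost without an animal, with changes of -1.43 to 1.28 there.

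Among all genes 6.31% were called higher and 10.7% lower, and the shares of the remaining lists are set beside these. Of 29 cell cycle genes, 1 (3.45%) was higher, Ccnd2 (1.54 ± 0.29, adjusted p = 0.00102), and 1 (3.45%) lower, Ccnd3 (-1.09 ± 0.28, adjusted p = 0.00859). The call of Ccnd3 was lost without animal 1 (-1.13, adjusted p = 0.0795) and animal 4 (-1.04, adjusted p = 0.0886). Of 18 sterol genes 0 were higher and 1 (5.56%) was lower on brightest probes (5 lower with each animal as a fixed block). It was Dhcr7, an enzyme of cholesterol synthesis, and lost its call without animal 1 (-1.07, adjusted p = 0.0791) and animal 4 (-1.29, adjusted p = 0.0561). On brightest probes, 3 of 28 macrophage lineage and scavenger genes (10.7%) were higher and 0 lower. The 3 were Irf8, Tfec (1.29 ± 0.23), a factor of the MITF family, and the Fc receptor gene Fcgr4. The call of Fcgr4 was lost without animal 5 (0.74, adjusted p = 0.0759). Stab1, on probes other than its brightest, changed by -3.66 and -0.01.

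**Figure D3:**
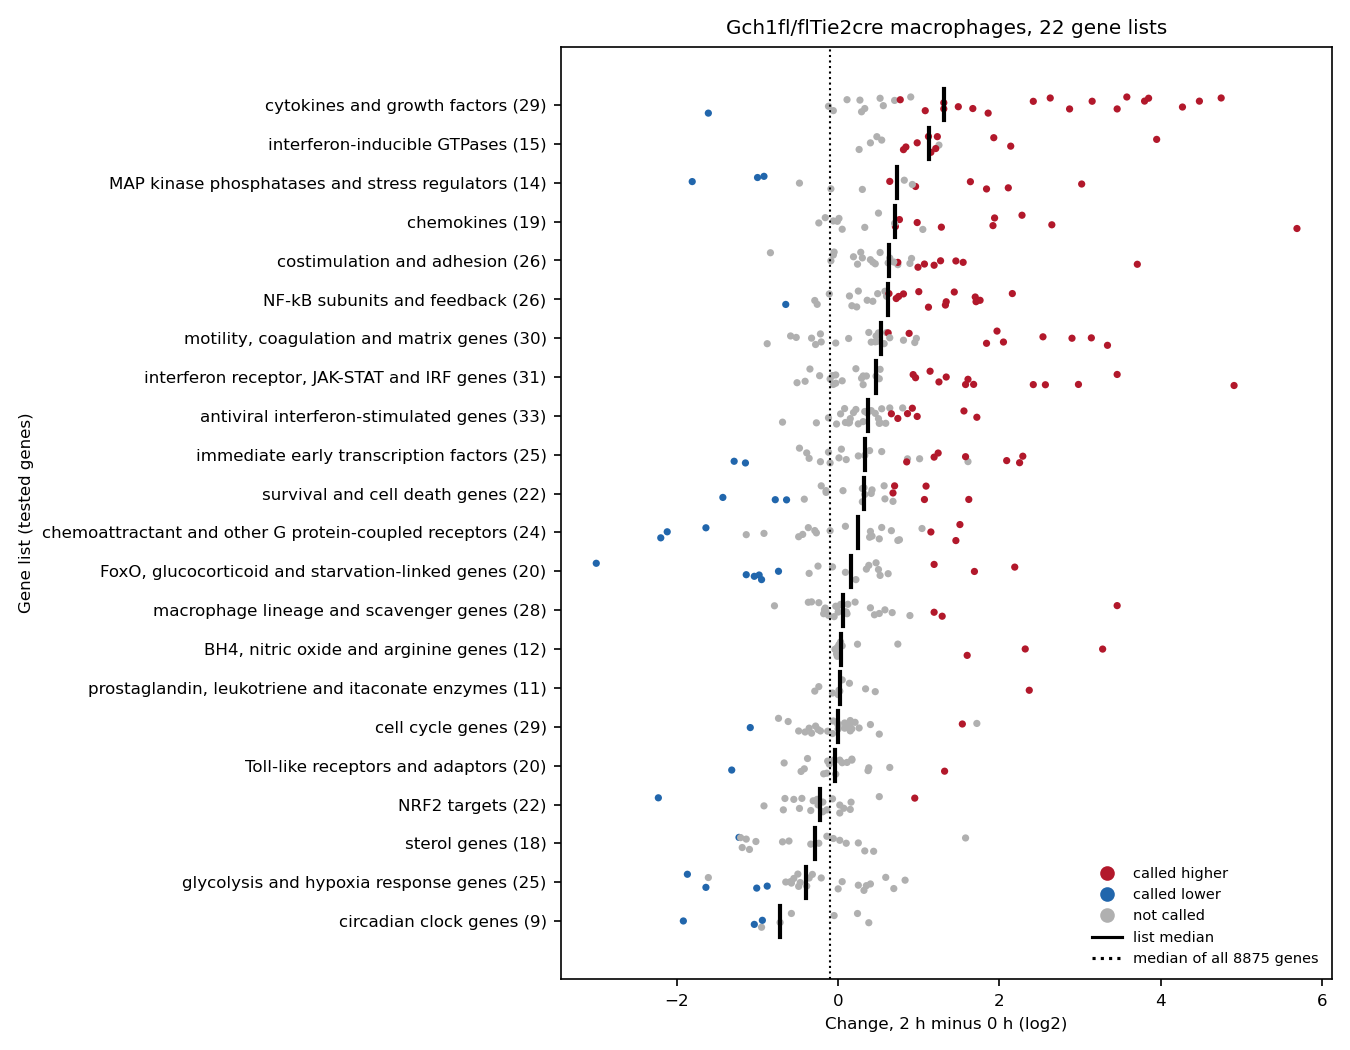
Change from 0 h to 2 h (log2, horizontal axis) of the tested genes of 22 lists in Gch1fl/flTie2cre macrophages, with one point per gene, coloured where called, a bar at the list's median and a dotted line at the median of all 8875 genes. Cytokine genes lie farthest to the right, with a median of 1.31, and circadian clock genes farthest to the left, with -0.72.

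The falls held many zinc finger genes, a family seen after its values were looked at. Of 163 tested genes whose symbol begins with Zfp, 54 (33.1%) were called lower and 11 (6.75%) higher, against 10.7% and 6.31% of all genes. Their median change was -0.40. The share called lower was 33.0% of 94 genes under a level of 8, 36% of 50 between 8 and 10 and 31.2% of 16 between 10 and 12. Of the 163, 18 were detected on all 3 arrays at 0 h and on none at 2 h. Among all 8875 genes 295 (3.32%) were so, and 281 of these were among the 3033 genes with a mean level under 8. In wild-type cells 43 were called lower and 11 higher (median -0.40).

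Zfp251 had the largest fall, from 9.13, 8.73 and 8.65 at 0 h to undetected on all 3 arrays, at least 3.79-fold lower (adjusted p = 2.26e-07). Zfp52 measured 8.85, 8.70 and 8.85 before stimulation and 7.10, 7.38 and 7.15 at 2 h, with little spread in either group, and fell by 1.59 ± 0.16 (adjusted p = 1.35e-06). Zfp12 stood at 8.01, 7.66 and 7.80 at 0 h and was undetected at 2 h, at least 1.87-fold lower (adjusted p = 0.000225). Most genes of this name encode C2H2 zinc finger proteins, many of them repressors of transcription.

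The Zfp count moved with the processing. With the deposited values 34 were called lower (20.9%, all genes 9.95%), without background correction 21 (12.9%, 5.83%) and with each array scaled to one median 88 (54.0%, 29.5%). Without animals 1, 4 and 5 in turn 24, 30 and 43 were called lower (14.7, 18.4 and 26.4%), where all genes gave 5.09, 5.42 and 8.08%. The 2 h arrays were the dimmer ones, and the part of this in the falls was not tested.

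Other symbol prefixes with at least 20 tested genes spread around the background. Of 39 prefixes, 16 had a share called lower above that of all genes, among them Ccdc with 15 of 52 (28.8%), Fbxo with 6 of 21 (28.6%) and Rnf with 11 of 52 (21.2%). Of 33 ribosomal Rpl genes 0 were called either way, with a median of -0.03, and of 26 Rps genes 2 (7.69%) were higher and 0 lower, with changes of -0.89 to 1.27. Their median levels at 0 h were 14.13 and 14.39, near the top of the range. Of 36 genes whose symbol begins with Il, 14 (38.9%) were higher and 1 lower.

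**Figure D4:**
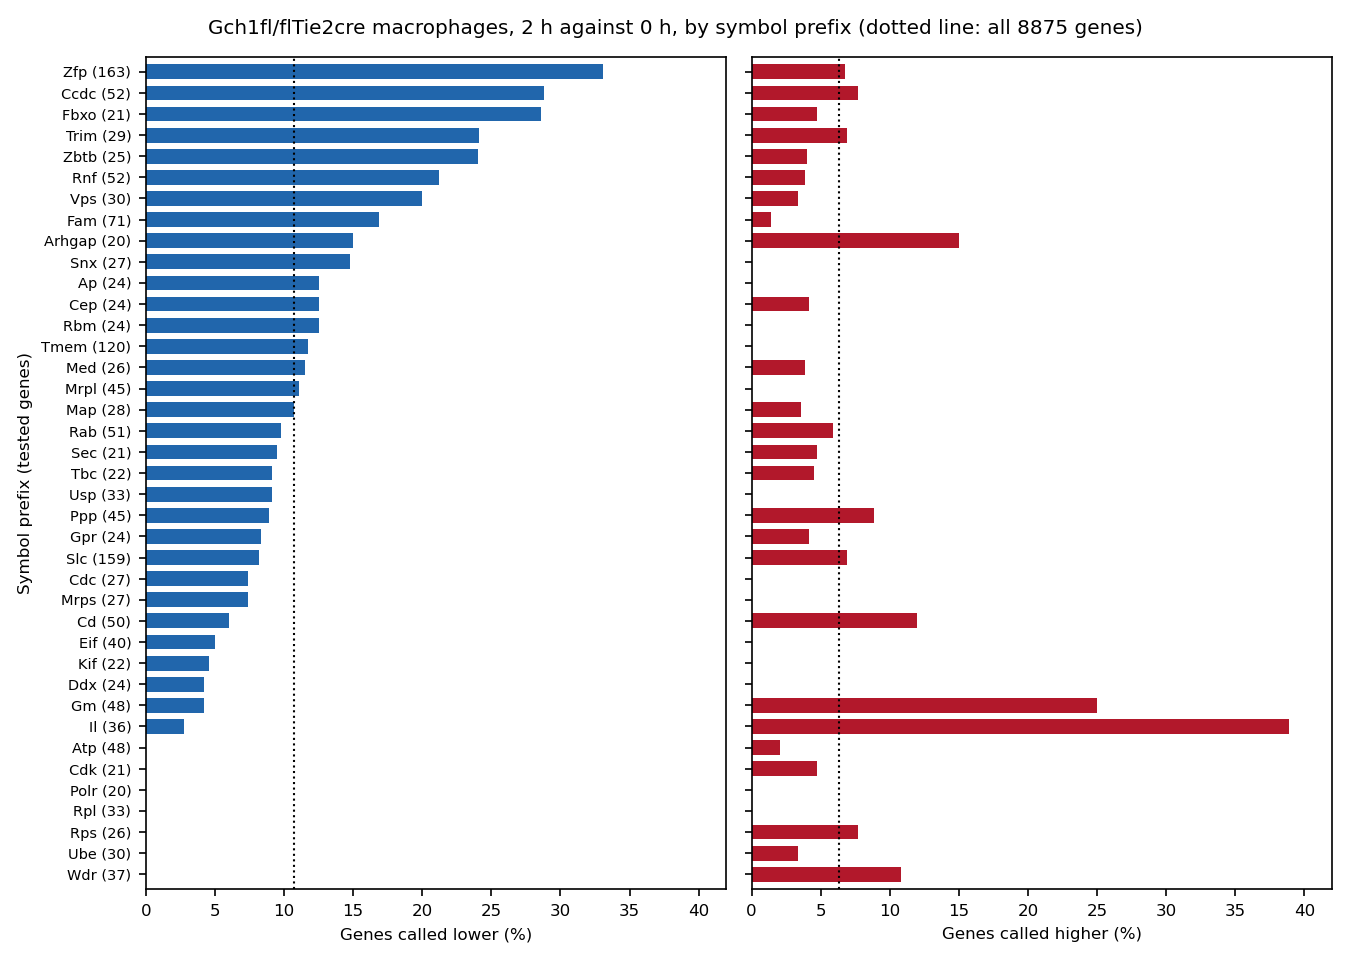
Share of tested genes called lower (left) and higher (right) at 2 h in Gch1fl/flTie2cre macrophages (percent, horizontal axes) for 39 symbol prefixes with at least 20 tested genes, with a dotted line at the share among all 8875 genes. The Zfp bar is the longest on the left at 33.1%, and the Il bar the longest on the right at 38.9%.

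Detection changed sides for more genes downwards than upwards. In all, 27 genes (0.304%) were detected on no array at 0 h and on all 3 at 2 h, of which 15 were so in wild-type cells too. Besides Il19, Inhba, Il12a and Rnd1 they included Ptx3, the gene of a secreted pattern recognition protein, at 8.31, 8.27 and 8.45 at 2 h, at least 3.69-fold higher. In the opposite direction, 295 genes (3.32%) were detected on all 3 arrays at 0 h and on none at 2 h, 203 of them called lower, and 123 were so in wild-type cells. The lowest detected level was 6.32 to 6.59 on the 0 h arrays and 6.81 to 6.98 on the 2 h arrays, so the detection limit itself stood higher at 2 h.

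The 20 largest rises and falls were followed to the later time points. They were chosen by their change from 0 h to 2 h, which favours an extreme mean at 2 h and a later return. The levels also share the 0 h arrays and are given side by side only. Of the 20 rises, 13 had their highest mean at 2 h and 7 at 8 h, and the medians over the 20 genes at 0, 2, 8 and 24 h were 7.50, 11.77, 11.43 and 7.66. At 24 h 10 of the 20 lay within 1 log2 unit of their 0 h mean. Of the 20 falls, 19 had their lowest mean at 2 h and 1, Sesn1, at 8 h, with medians of 8.76, 6.33, 8.66 and 9.10. At 8 h 13 of the 20 lay within 1 log2 unit of their 0 h mean and 12 lay above it.

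**Figure D5:**
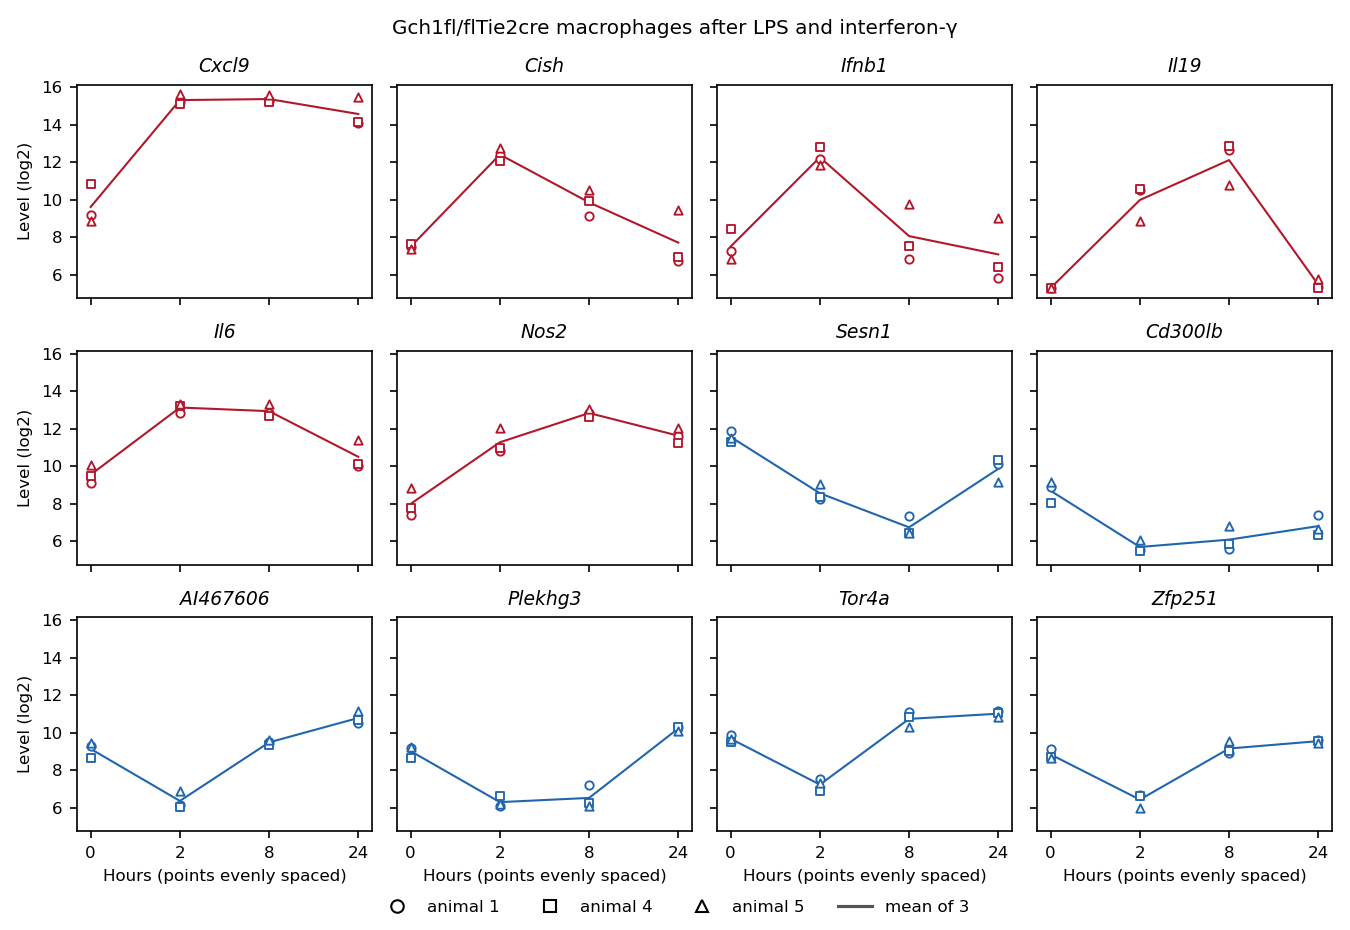
Normalized level (log2, vertical axes) in Gch1fl/flTie2cre macrophages at 0, 2, 8 and 24 h (horizontal axes, points evenly spaced) for 6 genes of the largest rises (red) and 6 of the largest falls (blue), with one symbol per animal and a line through the mean of 3. At 8 h the mean of Ifnb1 is 8.06, with animal 5 at 9.785, while that of Il19 reaches 12.11. Tor4a and Zfp251 stand at means of 10.73 and 9.16 at 8 h.

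The response was set beside that of wild-type macrophages, which share no array with it. In wild-type cells 582 genes (6.56%) were called higher and 855 (9.63%) lower, 16.2% together, and over probes 6.95% were higher and 8.39% lower, 15.3% together. Of the 560 genes higher in Gch1fl/flTie2cre cells 440 were called higher in wild-type cells, and of the 949 lower 664 were called lower, with 0 genes called in opposite directions. All 40 of the largest rises and falls were called the same way in wild-type cells. In the test of the difference of the responses 0 genes were called, 97 had an unadjusted p under 0.05, and the lowest adjusted p was 1. The 95% interval of that difference reached 0.72 log2 units to each side in the median gene. This interval is not adjusted for the number of genes, and differences of over 1 log2 unit were among those not called.

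The gene with the lowest p in that test was Cd247, the ζ chain of the T cell receptor and of some Fc receptors. It measured 6.35, 6.10 and 6.42 before stimulation and 7.56, 7.23 and 7.38 at 2 h, wholly apart, and rose by 1.10 ± 0.15 against 0.19 in wild-type cells, a difference of 0.91 with an interval of 0.46 to 1.36 (unadjusted p = 0.00043, limma adjusted p = 1). It was detected on 1 of its 3 arrays at 0 h. For Rnd1 the responses were not shown to differ either (unadjusted p = 0.0517).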

How the data were processed

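RNA from 24 cultures had been labelled with MessageAmp, hybridized to Illumina MouseWG-6 V2 BeadChips and extracted with GenomeStudio by the authors, who deposited unnormalized intensities per probe and, beside each, its detection p-value. The authors also deposited log2 values after variance stabilization with limma under R 2.14, whose rank correlation with the intensities was 1 on each array. The chip that held each array is not given in the sources used here. From the intensities, background was corrected by the detection p-values and arrays were quantile normalized and taken to log2 (neqc, offset 16; R 4.3.3, limma 3.58.1, statmod 1.5.0). Probes with a detection p under 0.01 on at least 3 of 24 arrays were tested, 16498 of 45281, of which 14050 were named for 1 gene, 8 for several and 2440 for none. The limma fit held a mean for each of 8 groups, and animal entered as a random block (consensus correlation 0.124). Pairing comes from the animal numbers in the labels, and the deviations of an animal at 0 h and 2 h correlated at 0.506, 0.529 and 0.674 for animals 1, 4 and 5.

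Genes were named by rule: Gch1, the 20 largest rises and 20 largest falls whose arrays did not overlap and whose 3 animals moved the same way, called members of the gene lists, the 10 lowest p in the difference of responses, and up to 10 genes detected at one time point only. The members, lists and tests were chosen with earlier results of these data known, and the lists were given no test. Of the steps, only the limma fit and the calling were tested on simulated data, which were drawn as already normalized log2 levels. A gene undetected on all 3 arrays of a group was set, on each array, to the larger of its value and the lowest detected value, which gives the "at least" folds. Intervals are at 95%. The alternatives were other background corrections, normalizations, filters, blocks, array weights and thresholds, and leaving out each animal. The number of animals limits the precision.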

Additional observations from a re-analysis of the deposited data

Results flagged for a closer look

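In 6 of the 541 genes looked at by name, all 3 Gch1fl/flTie2cre animals moved one way from 0 h to 2 h and all 3 wild-type animals the other, a pattern that 78 of 8875 genes (0.879%) showed. limma tested the difference of the responses, and its adjusted p was 1 for each of them.

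For 4931406B18Rik the Gch1fl/flTie2cre response minus the wild-type response was 1.09 (interval 0.31 to 1.86, unadjusted p = 0.00824), from changes of 0.79 and -0.30. For Mtmr2, a lipid phosphatase gene, the difference was -0.75 (interval -1.19 to -0.31, unadjusted p = 0.00205), from changes of -0.52 and 0.22. For Pycard, the inflammasome adaptor ASC, it was 0.65 (interval -0.37 to 1.66). Fth1, the ferritin heavy chain, differed by 0.25 (interval -0.12 to 0.62), Mcm3, a DNA replication licensing factor, by 0.24 (interval -1.42 to 1.91) and Mmp8, the neutrophil collagenase, by 0.17 (interval -0.65 to 0.99).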

How the results depend on the processing

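Of 2964 recomputed changes of 198 named genes, 2628 kept their direction and their side of the threshold, 328 kept the direction and lost the call, 3 gained a call and 5 turned sign. The most calls were lost without animal 1 (67), without animal 4 (57), without animal 5 (37), with no filter on dim probes (33), with each array scaled to one median (28) and with the deposited values (23). Of the 20 largest rises 20 kept their call without each animal in turn, and of the 20 largest falls 18. The sign turned for Fam216a (0.184) with the deposited values (-0.077) and median scaling (-0.503), and for Ttf1 (-0.063) with cyclic loess (0.041), without animal 1 (0.032) and without animal 4 (0.008), with -0.229 without animal 5. The cause was not tested.

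In Gch1fl/flTie2cre cells 1114 probes were called higher and 1597 lower (6.75 and 9.68%). The higher count was 701 with the deposited values, 411 with median scaling, 1896 with array weights, 683 at a fold over 2 and 501 to 876 leaving out one animal. The lower count was 744 without background correction, 4563 with median scaling, 2484 with array weights, 797 at a fold over 2 and 739 to 1196 leaving out one animal. Higher calls made up 41.1% of all calls, 8.26% with median scaling and 52.8% without background correction, where the median change over all probes was -0.07, -0.54 and -0.045 in that order. The wild-type count of 2530 was 1559 without background correction, 4344 with array weights, 1431 at a fold over 2 and 1211 to 2210 leaving out one animal. Array weights called 32 probes in the difference of responses, and the other settings run called 0. The estimate of these weights stopped short of its convergence tolerance, so the counts given with array weights are uncertain.

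The pairing by animal moved neither count over all probes by over 1.5 times: with no replicate block 930 probes were higher and 1337 lower, with each animal as a fixed block 1158 and 1670, and with a fixed block on the 6 arrays alone, which also drops the other groups, 1627 and 2145. In the lists, with no replicate block the genes called lower went from 3 to 1 in the clock and survival lists, from 4 to 2 in the glycolysis list and from 1 to 0 in the NF-κB list, and the 1 NRF2 target called higher was lost. With the fixed block the sterol genes called lower went from 1 to 5 and called higher from 0 to 1, and the NRF2 targets called lower from 1 to 2. With no replicate block 22 named genes lost their call, and with each animal as a fixed block 6. The genotype difference of Gch1 at 2 h ran from -2.34 to -2.10 leaving out one animal, and lost its call without animal 4 (-2.34, adjusted p = 0.0711) and without wild-type animal 3 (-2.26, adjusted p = 0.0899). Dimmer arrays and 3 animals a group limit what can be seen of low probes.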
